A study of Mus musculus with 6 samples.

Results

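Genes of the prolactin and growth hormone receptor pathway were described in pancreatic islets of mice that lack Neurod1, a basic helix-loop-helix transcription factor, in beta cells. The 10 genes were chosen by symbol from the 23284 genes of the count files: the receptors Prlr and Ghr, the kinase Jak2, the transcription factors Stat5a and Stat5b, the feedback inhibitors Cish, Socs2 and Socs3, and the inducible genes Matn2 and Bcl6. All 10 were found and all 10 had enough counts to be tested. The knockout group carried Neurod1-floxed/floxed alleles and Rip-Cre, in which the rat insulin promoter drives Cre recombinase, and the control group carried Neurod1-floxed/floxed alleles with no Cre. The strain of both groups is labelled C56BL/J, a spelling left as the labels have it, and all mice were 12 weeks old. Each group had 3 RNA-seq libraries of isolated islets, with the numbers 4, 5 and 6 for the knockout and 7, 10 and 16 for controls. Whether the 3 libraries of a group are 3 animals is not stated in the labels, and p-values then measure only the spread between these samples, which may be technical.

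Controls had no Cre, so an effect of the Cre transgene and an effect of Neurod1 loss cannot be told apart. This bears on these genes in particular, because some published Cre transgenes with the rat insulin promoter carry a human growth hormone minigene, and human growth hormone can bind the mouse prolactin receptor. The labels do not name the Cre line, and a transcript of such a minigene was not analysed here.

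Prolactin and growth hormone bind class I cytokine receptors that have no kinase of their own and work through the bound kinase Jak2. Jak2 phosphorylates the receptor and Stat5, which moves to the nucleus and turns on target genes, among them Cish, Socs2 and Socs3, whose products dampen the same receptors. In islets this pathway is best known from pregnancy, when placental lactogens and prolactin act through Prlr to raise beta cell number and insulin secretion, and growth hormone receptor signalling supports beta cell growth as well. The messages measured here give the level of each component and not whether Jak2 or Stat5 protein was phosphorylated.

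Library totals ran from 12206393 to 16473159 counts in the knockout and from 14424767 to 20412435 counts in the control. Neurod1 was at 29.8 ± 1.41 counts per 1e+06 counts (CPM) in the knockout, against 172 ± 29.2 CPM in control islets (SD, n = 3 each), with no overlap between groups. Ins2, an insulin gene that marks beta cells, was between 105221 and 119953 CPM in knockout libraries. In control libraries Ins2 was between 106196 and 116785 CPM, in keeping with the label of isolated islets. Summed over 13 beta cell markers the level was 134719 to 151556 CPM in the knockout, against 176570 to 194969 CPM in control islets. Of these markers, 4 were higher, 3 lower and 6 not passed. Their log2 fold changes (knockout over control) ran from -3.50 to 1.10 with a median of 0.13, so the sum does not stand for each marker. Summed alpha and delta cell markers were at 32304 to 42460 CPM in the knockout, against 43609 to 60373 CPM in control islets. Of these 12 markers, 1 was higher, 2 were lower and 9 did not pass. The part of these marker levels in the results was not tested. Summed endothelial markers were at 729.5 to 856 CPM in the knockout, against 1137 to 1147 CPM in control islets. Summed acinar markers were at 4952 to 14413 CPM in the knockout, against 13646 to 49075 CPM in control islets. Of 15 endothelial markers 10 were lower and 5 did not pass, and of 18 acinar markers 2 were lower and 16 did not pass. The acinar count depended on the method: 14 were lower and 1 higher with DESeq2, and 14 were lower without robust dispersions and 8 with limma-voom. At an unadjusted edgeR p under 0.05, 11 acinar markers were lower and 0 higher, and their median log2 fold change was -1.80. For all these lists, the shares over all genes tested were 11.8% higher and 12.6% lower. None of the 15 endothelial or 18 acinar markers was at 0 in any library. In bulk islets, fewer cells of a type and less RNA per cell cannot be told apart.

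Of the 10 pathway genes, Matn2 and Prlr rose in the knockout, Ghr fell, and the other 7 did not pass edgeR's quasi-likelihood test at an adjusted p of 0.05. Over all 14770 genes tested, 24.4% passed, with 11.8% higher and 12.6% lower, so 3 calls among 10 genes are near the background share. The groups did not overlap for 4 of the 10 genes (Matn2, Prlr, Jak2 and Ghr), against 42.0% of all genes tested (20.0% with the knockout above and 22.0% with it below). The share of all genes called was 23.0% with DESeq2, 23.5% with limma-voom, 24.3%, 24.8% and 24.2% with DESeq2, upper-quartile or no scaling factors, 18.7% with no low-count filter, 27.7% with at least 50 counts in 3 libraries, 24.1% without robust dispersions and 11.8% with the acinar covariate. It was 19.1%, 17.8% and 19.7% without knockout library 4, 5 or 6, and 17.9%, 16% and 18.8% without control library 7, 10 or 16. The median log2 fold change (knockout over control) was 0.04 over the 10 genes and -0.01 over all genes tested.

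**Figure D1:**
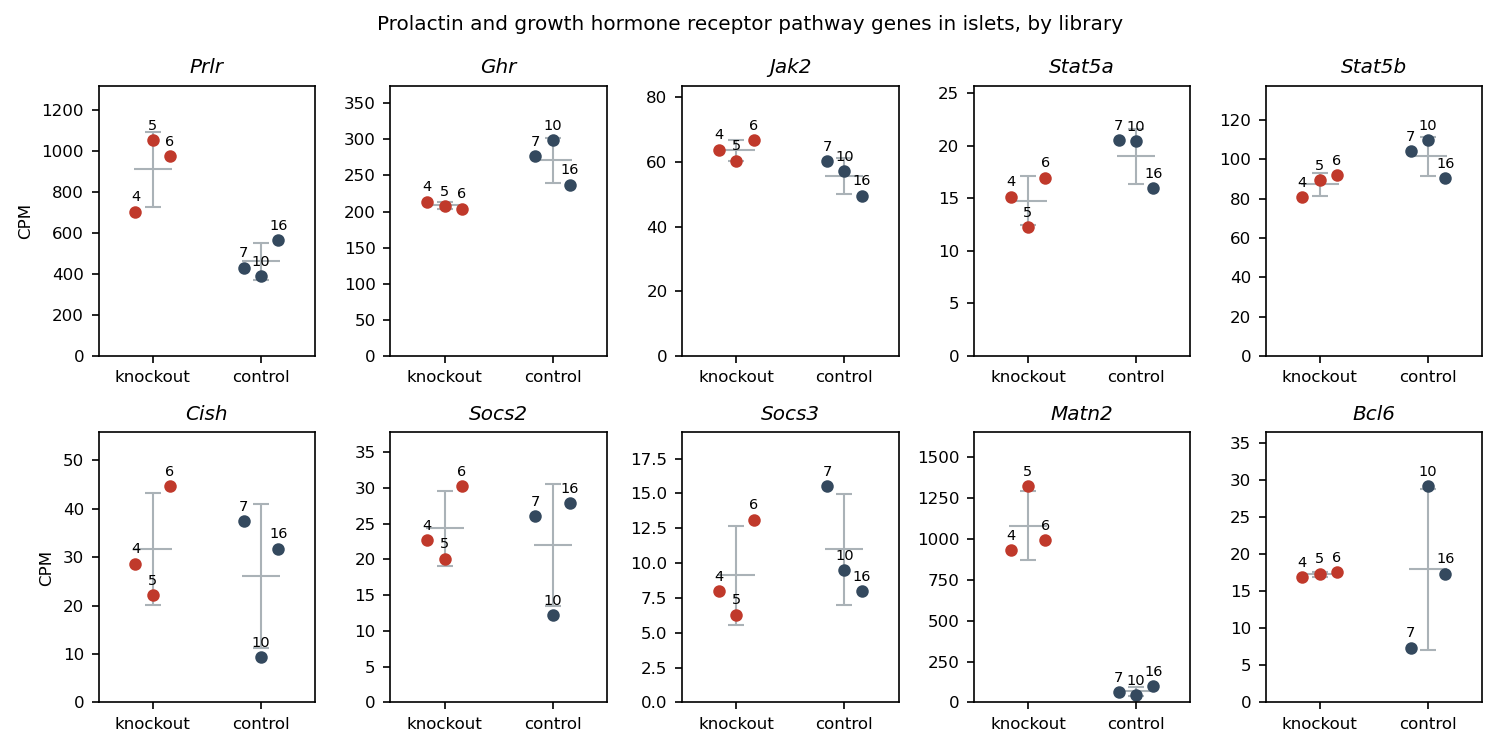
Level of each of the 10 pathway genes in CPM (linear axes from 0), with knockout libraries in red on the left and control libraries in dark blue on the right of each panel. Dots are libraries with their numbers, and grey bars are the mean and SD of 3 libraries. Matn2 and Prlr lie higher in all 3 knockout libraries, Ghr lies lower, and control library 10 is the lowest library for Cish and Socs2 and the highest for Bcl6.

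Prlr, the receptor for prolactin and placental lactogens, was at 702, 1052 and 973 CPM in knockout libraries 4, 5 and 6 and at 430, 388 and 563 CPM in control libraries 7, 10 and 16. The lowest knockout library lay above the highest control library. The rise was 1.97-fold, from the log2 fold change of 0.98 (SE 0.19, edgeR adjusted p = 0.00897). By mean CPM, Prlr ranked 63 in the knockout and 136 in the control among the 14770 genes. The call held without any 1 library (adjusted p from 0.00263 to 0.0391). With the summed acinar marker level as a covariate the log2 fold change was 0.95 but missed the threshold (adjusted p = 0.115, where the alternatives ranged from 2.14e-08 to 0.115). That level was itself higher in control libraries 7 and 10 than in any knockout library, and the covariate uses up a degree of freedom. For calls lost with this covariate, lost power and acinar content therefore cannot be told apart.

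Ghr, the growth hormone receptor, was at 214, 208 and 204 CPM in knockout libraries and at 277, 299 and 237 CPM in control libraries. The knockout libraries lay close together and all below the lowest control library, number 16. Ghr fell 1.3-fold, with a log2 fold change of -0.38 (SE 0.09, edgeR adjusted p = 0.0182). This call was lost without knockout library 4 (adjusted p = 0.0531) or 6 (0.0598) and without control library 7 (0.0641) or 10 (0.0685), while the acinar covariate gave -0.24 (adjusted p = 0.300). Over all alternatives its adjusted p ranged from 0.00232 to 0.300. Endothelial and stromal cells can also carry Ghr, and the part of the lower endothelial marker level in this difference was not tested.

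The 2 receptor messages were also compared within each library, where scaling cancels. The log2 ratio of Ghr to Prlr within a library was -1.71, -2.34 and -2.25 in the knockout, against -0.63, -0.38 and -1.25 in the control. Its mean was -2.10 ± 0.34 in the knockout, against -0.75 ± 0.45 in the control (SD, n = 3 each), a difference of -1.35. The exact two-sided permutation test gave p = 0.1, the smallest that 3 libraries against 3 allow, and 0.3 after adjustment over the 3 ratios compared. Prlr lay higher and Ghr lower in every knockout library, so the ratio had to separate the groups. This p therefore adds nothing to the calls of the 2 genes. Per kilobase of annotated exon, Prlr was at 59.2 ± 11.9 CPM in the knockout, against 30.0 ± 5.95 CPM in control islets, and Ghr at 23.0 ± 0.556 CPM in the knockout, against 29.9 ± 3.46 CPM in control islets (SD, n = 3 each). On that scale the control levels of the 2 receptors did not differ beyond their spread. Per kilobase of the longest transcript, control Ghr (64.9 CPM) was above control Prlr (46.5 CPM), so the order of the receptors in control islets depends on the transcript length used. Both genes also give short forms that lack most of the signalling part, which counts per gene do not separate.

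The ligands themselves were near or at 0 in islets. Of 10 genes of the prolactin and growth hormone family, 8 had 0 counts in every library and the other 2, Prl and Gh, had at most 2 counts in a library. A count of 0 allows a level of up to 0.182 to 0.246 CPM per library in the knockout and 0.147 to 0.208 CPM in the control, for counting error only (3 counts over the library total). Mouse prolactin and growth hormone come from the pituitary, and islet counts say nothing of their level in blood.

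Jak2, the kinase that both receptors use, was at 63.8, 60.3 and 66.8 CPM in knockout libraries and at 60.2, 57.1 and 49.5 CPM in control libraries. Knockout libraries lay above control libraries by a margin of less than 0.1 CPM, between knockout library 5 and control library 7. The log2 fold change of 0.19 (SE 0.09) did not pass (edgeR adjusted p = 0.139), nor did it under any of the 15 alternatives (adjusted p from 0.0916 to 0.325).

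Stat5a and Stat5b encode near-identical transcription factors and lie side by side in the genome. Stat5b was at 80.8, 89.5 and 91.8 CPM in knockout libraries and at 104, 110 and 90.5 CPM in control libraries. Stat5a was at 15.2, 12.3 and 17.0 CPM in knockout libraries and at 20.6, 20.5 and 15.99 CPM in control libraries. For both, control library 16 lay within the knockout range and the groups overlapped. Their log2 fold changes were -0.22 (SE 0.09) for Stat5b and -0.37 (SE 0.15) for Stat5a, with the same edgeR adjusted p of 0.105. Stat5b passed without control library 16 (-0.29, adjusted p = 0.0409, where its alternatives ranged from 0.0409 to 0.998), and Stat5a passed under none of the 15 alternatives. Per kilobase of annotated exon, Stat5b was at 15.8 ± 1.05 CPM in the knockout, against 18.3 ± 1.79 CPM in control islets, and Stat5a at 2.07 ± 0.332 CPM in the knockout, against 2.66 ± 0.366 CPM in control islets (SD, n = 3 each), so Stat5b was the more abundant copy in every library. The log2 ratio of Stat5a to Stat5b within a library was -2.56 ± 0.25 in the knockout and -2.41 ± 0.08 in the control (SD, n = 3 each), a difference of -0.15 (exact two-sided permutation p = 0.5), which was -0.002 without knockout library 5. Of the 100-base windows of annotated Stat5a transcripts, 3.44% were also found in Stat5b, and 4.79% of those of Stat5b in Stat5a, a window as long as the reads that the labels give. Exons of Stat5a and Stat3 overlap on opposite strands in the annotation, and the sources used here do not give whether counting used strand.

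The feedback inhibitors showed large spread between libraries of 1 genotype. Cish, which blocks Stat5 docking sites on these receptors, was at 28.6, 22.1 and 44.6 CPM in knockout libraries and at 37.4, 9.32 and 31.7 CPM in control libraries. Control library 10 was the lowest of all 6, and the control range was 4.02-fold. Socs2, which limits growth hormone receptor signalling, was at 22.7, 20.1 and 30.2 CPM in knockout libraries and at 26.0, 12.2 and 27.9 CPM in control libraries, again lowest in control library 10. Socs3, an inhibitor shared with many cytokine receptors, was at 7.98, 6.30 and 13.1 CPM in knockout libraries and at 15.5, 9.47 and 7.96 CPM in control libraries. For all 3 genes, knockout library 6 was the highest and knockout library 5 the lowest of the knockout.

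None of the 3 inhibitors passed. The log2 fold change was 0.28 for Cish (SE 0.59, edgeR adjusted p = 0.774), 0.15 for Socs2 (SE 0.34, adjusted p = 0.792) and -0.28 for Socs3 (SE 0.34, adjusted p = 0.600). With standard errors of this size, a change of the order seen for Prlr was not detectable for Cish. Without control library 10 the direction turned for Cish (-0.13, adjusted p = 0.815) and Socs2 (-0.15, adjusted p = 0.592), and without knockout library 6 both were close to 0 (-0.02 for each, adjusted p = 0.986 and 0.978). Socs3 turned to 0.063 (adjusted p = 0.912) without control library 7. The adjusted p over the alternatives ranged from 0.530 to 0.986 for Cish, from 0.566 to 0.978 for Socs2 and from 0.204 to 0.912 for Socs3.

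Cish was also set against Prlr within each library. The log2 ratio of Cish to Prlr was -4.61, -5.56 and -4.44 in the knockout, against -3.52, -5.36 and -4.15 in the control, with control library 10 inside the knockout range. The difference was -0.53 (exact two-sided permutation p = 0.4, adjusted p = 0.5), and it ranged from -1.04 without control library 10 to -0.12 without control library 7, with -0.19 without knockout library 5.

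Bcl6, a transcriptional repressor that is a known target of Stat factors, also differed more within the control than between genotypes. It was at 16.9, 17.4 and 17.5 CPM in knockout libraries and at 7.39, 29.1 and 17.4 CPM in control libraries. The knockout libraries were nearly equal, while control library 10 was the highest and control library 7 the lowest of all 6, a 3.94-fold range. Control library 10 thus had the lowest Cish and Socs2 and the highest Bcl6, with a total of 20412435 counts, the deepest of the 6. The log2 fold change of Bcl6 was -0.06 (SE 0.49, edgeR adjusted p = 0.947), and it was 0.49 without control library 10 (adjusted p = 0.394) and -0.43 without control library 7 (adjusted p = 0.203), where all alternatives ranged from 0.203 to 0.983. Of 5 partners and relatives of Bcl6, the corepressor gene Ncor1 rose by 0.26 (SE 0.07, adjusted p = 0.0338) and 4 did not pass. The share of all genes tested that passed was 24.4%. Ncor1 missed the threshold without any 1 library except knockout library 4 (adjusted p from 0.0562 to 0.102), and with upper-quartile factors (0.0515) or the acinar covariate (0.0848).

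**Figure D2:**
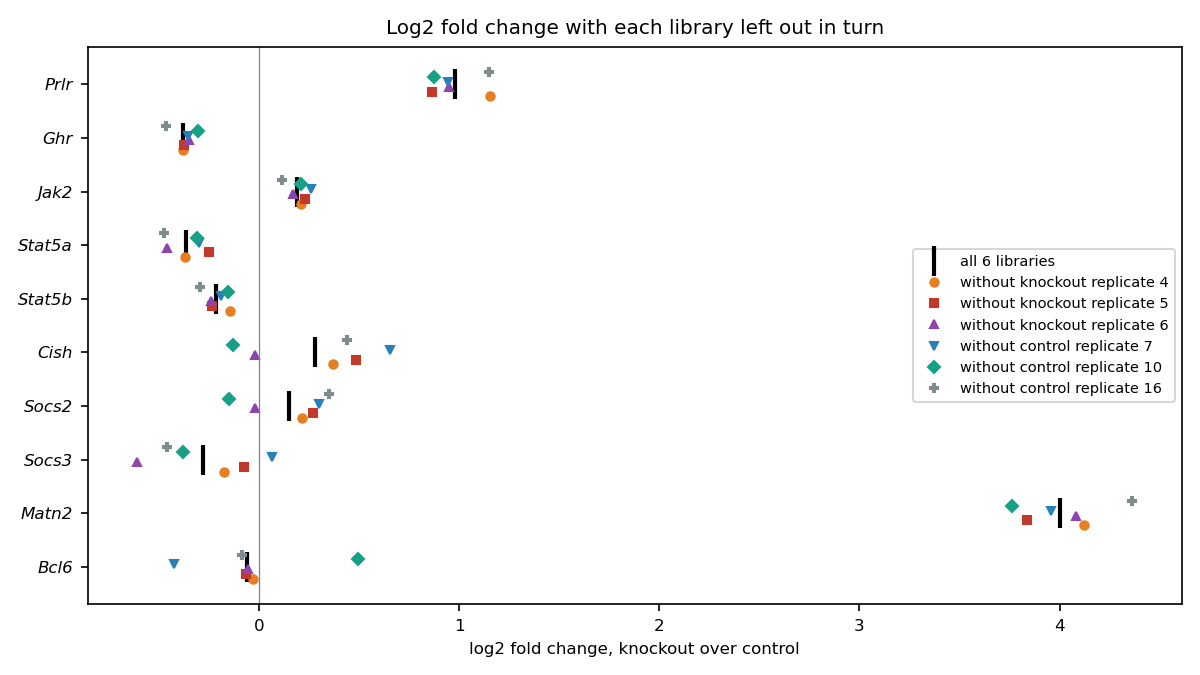
Log2 fold change (knockout over control, x axis) of each pathway gene with all 6 libraries (black bar) and with each library left out in turn (coloured marks). Matn2 stays between 3.76 and 4.36 and Prlr between 0.86 and 1.16, while Cish, Socs2, Socs3 and Bcl6 move across 0 when control library 7 or 10 or knockout library 6 is left out.

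The 5' windows of some of these genes carry the letter pattern that Stat5 is known to bind, TTCNNNGAA, a palindrome that reads the same on either strand. Windows of 300 bases, from 250 before to 50 after an annotated start, were matched by symbol in the RefSeq table of build GRCm38.p6 for 8 of the 10 genes (14 windows). The pattern was present in 5 of the 14 windows, belonging to Cish, Socs3, Bcl6 and Prlr, and in 8.30% of all 32851 windows of the table. The window of Cish held it in 2 copies, which 0.457% of all windows hold at least, and the second start of Bcl6 held 3 copies, which 0.0335% hold at least. For each of these 4 genes the window with the most copies is shown. Capitals mark TTCNNNGAA, and in Prlr also the E-boxes CAGATG and CAGCTG, of the kind that basic helix-loop-helix factors such as Neurod1 bind. A match is a string of letters and not a site shown to be bound.
Cish (chr9:107296409-107296708, plus strand): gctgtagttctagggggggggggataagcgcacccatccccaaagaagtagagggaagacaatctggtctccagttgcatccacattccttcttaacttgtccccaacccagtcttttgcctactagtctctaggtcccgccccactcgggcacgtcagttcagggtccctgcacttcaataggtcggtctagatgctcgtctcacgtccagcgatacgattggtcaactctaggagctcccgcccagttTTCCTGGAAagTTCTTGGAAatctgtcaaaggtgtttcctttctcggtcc
Socs3 (chr11:117969317-117969616, minus strand): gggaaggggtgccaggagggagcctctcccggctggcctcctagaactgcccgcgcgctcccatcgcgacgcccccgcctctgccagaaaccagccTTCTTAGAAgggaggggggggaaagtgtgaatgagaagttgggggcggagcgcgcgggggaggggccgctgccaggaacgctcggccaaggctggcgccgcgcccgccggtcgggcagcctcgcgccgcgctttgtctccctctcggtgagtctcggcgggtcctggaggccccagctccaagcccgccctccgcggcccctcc
Bcl6, the second start (chr16:23981234-23981533, minus strand): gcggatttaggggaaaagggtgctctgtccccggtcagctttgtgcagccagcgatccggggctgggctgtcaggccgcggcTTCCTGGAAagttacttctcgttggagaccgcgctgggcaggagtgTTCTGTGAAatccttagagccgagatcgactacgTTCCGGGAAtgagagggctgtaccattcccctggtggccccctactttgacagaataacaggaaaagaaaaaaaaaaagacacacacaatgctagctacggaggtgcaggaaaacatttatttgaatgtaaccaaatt
Prlr, the second start (chr15:10223656-10223955, plus strand): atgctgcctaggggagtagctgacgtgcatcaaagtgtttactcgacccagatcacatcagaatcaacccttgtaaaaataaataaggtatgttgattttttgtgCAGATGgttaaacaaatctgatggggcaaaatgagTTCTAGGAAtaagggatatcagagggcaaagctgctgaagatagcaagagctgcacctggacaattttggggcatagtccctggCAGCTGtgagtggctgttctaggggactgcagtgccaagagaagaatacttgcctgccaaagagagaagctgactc

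In Cish the copies began at bases 1 and 12 counted from the start, with 2 bases between them. In Socs3 the match began at base -154, and in the second window of Bcl6 the matches began at bases -168, -122 and -88. In Prlr the match began at base -110, with CAGATG from -145 and CAGCTG from -26. Searched on both strands, CAGATG was present in 3 and CAGCTG in 4 of the 14 windows, and in 17.2% and 16.3% of all windows. Counts per gene do not show which start was used. The bases just after the start were found in 1 GENCODE transcript of Cish. For the shown windows of Socs3, Prlr and Bcl6 they were found in 0, so positions there rest on the RefSeq start alone. Matn2 and Socs2 were not matched.

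Matn2 encodes matrilin-2, a secreted protein of the extracellular matrix that is known to be raised in islets by prolactin and in pregnancy. It was at 931, 1321 and 991 CPM in knockout libraries and at 61.9, 43.2 and 97.6 CPM in control libraries. The lowest knockout library was far above the highest control library. The rise was 16-fold (log2 fold change 4.004, SE 0.35, edgeR adjusted p = 0.00117), and it passed under all 15 alternatives (3.74 to 4.36, adjusted p from 3.46e-24 to 0.0211). By log2 fold change Matn2 ranked 25 among the 14770 genes, and by mean CPM it ranked 51 in the knockout and 2867 in the control. Per kilobase of annotated exon it was at 173 ± 33.5 CPM in the knockout, the highest of the 10 genes there, and 10.8 ± 4.41 CPM in control islets (SD, n = 3 each), where Prlr, Ghr, Stat5b and Jak2 had higher means.

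Other matrilins did not follow Matn2. Matn1 and Matn3 had at most 1 count in any library, and Matn4 was lower in the knockout (0.757 ± 0.102 CPM in the knockout, against 1.92 ± 0.442 CPM in control islets, SD, n = 3 each, log2 fold change -1.34, SE 0.32, edgeR adjusted p = 0.0176). Matn4 was not called when knockout library 4 (adjusted p = 0.0539) or 6 (0.0530) or control library 7 (0.0774) was left out, nor with the acinar covariate (0.220). An antisense gene that shares exon bases with Matn2, 9430069I07Rik, was at 3.58 ± 0.38 CPM in the knockout, against 1.07 ± 0.697 CPM in control islets (SD, n = 3 each). Stromal cells also make matrix proteins. Summed stellate and fibroblast markers were at 816 to 1167 CPM in the knockout, against 1159 to 1472 CPM in control islets, with 4 of 14 lower and 10 not passed. Over all genes tested, 11.8% were higher and 12.6% lower. The part of the stellate and fibroblast markers in the result was not tested.

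Of 16 islet genes known to be induced by prolactin or in pregnancy, 15 were tested, 6 rose, 0 fell and 9 did not pass, against 11.8% higher and 12.6% lower over all genes tested. Their median log2 fold change was 0.95, beside -0.01 over all genes tested. At an unadjusted p under 0.05, 10 were higher and 0 lower, and DESeq2 called 10 higher and 0 lower. With 1 library left out, 4 were called higher when it was number 5 or 6 of the knockout or 7 or 10 of the control, 5 without control library 16 and 11 without knockout library 4, and 1 was called lower without control library 7. The list was drawn up with earlier results of these data known, so it is not independent evidence of a direction.

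**Figure D3:**
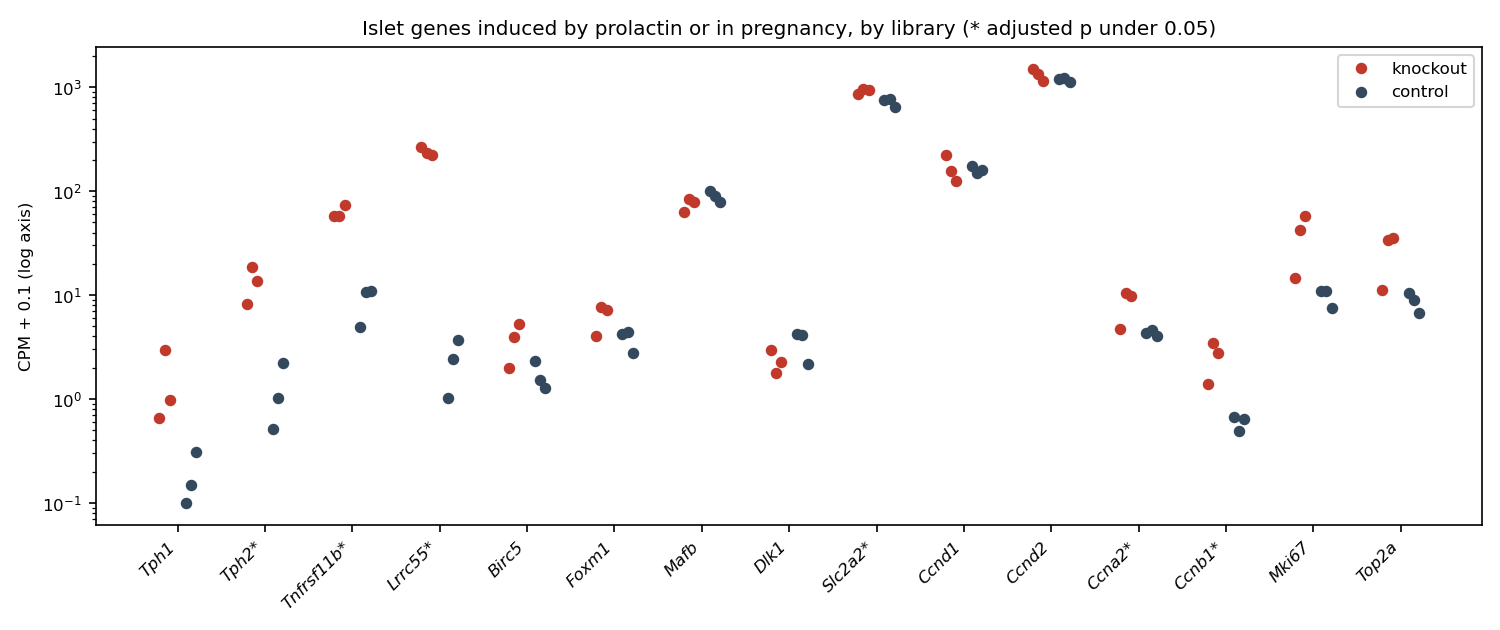
Level of 15 islet genes induced by prolactin or in pregnancy (CPM + 0.1, log axis), with knockout libraries 4, 5 and 6 in red on the left and control libraries 7, 10 and 16 in dark blue on the right of each gene. Lrrc55, Tnfrsf11b and Tph2 lie far higher in every knockout library, and the cell cycle genes Ccna2, Ccnb1, Mki67 and Top2a are lower in knockout library 4 than in knockout libraries 5 and 6.

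Lrrc55, an auxiliary subunit of potassium channels that is known to be induced in islets in pregnancy, was at 265, 231 and 223 CPM in knockout libraries and at 0.930, 2.31 and 3.57 CPM in control libraries (log2 fold change 6.78, SE 0.33, edgeR adjusted p = 1.08e-04). Tnfrsf11b, which encodes the decoy receptor osteoprotegerin, was at 57.8, 57.8 and 73.4 CPM in knockout libraries and at 4.80, 10.5 and 10.8 CPM in control libraries (2.86, SE 0.31, adjusted p = 0.00219). Tph2, a rate-limiting enzyme of serotonin synthesis, was at 8.11, 18.6 and 13.7 CPM in knockout libraries and at 0.413, 0.932 and 2.13 CPM in control libraries (3.59, SE 0.57, adjusted p = 0.00664). In each of these 3 genes every knockout library lay above every control library, and for Tph2 the gap was smaller than the spread among the knockout libraries. Tph2 missed the threshold with the acinar covariate (3.47, adjusted p = 0.0754), and the other 2 passed under all 15 alternatives. Control library 7 was below the level that the low-count filter asks for in Tph2, so the control libraries alone would not have met that filter. Tph1, the other enzyme of that step and the one best known from islets in pregnancy, had 9, 43 and 11 counts in the knockout libraries, against 0, 1 and 3 counts in the control libraries, too few for the test. Tph1 was named after its values were seen.

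Cell cycle genes of the same list differed among knockout libraries. Ccnb1, a mitotic cyclin, was at 1.29, 3.35 and 2.65 CPM in knockout libraries and at 0.568, 0.392 and 0.549 CPM in control libraries (log2 fold change 2.26, SE 0.43, edgeR adjusted p = 0.00656). Every control library was below the level that the low-count filter asks for, so Ccnb1 was tested only because of its knockout libraries. Its call, which is among the 6 of this list, carries that limit, and the stricter count filter left Ccnb1 out. Mki67, a marker of dividing cells, was at 14.6, 42.1 and 57.0 CPM in knockout libraries and at 10.8, 10.8 and 7.48 CPM in control libraries, and it did not pass (1.95, SE 0.55, adjusted p = 0.0618). Mki67 passed without knockout library 4 (2.36, adjusted p = 4.36e-04), with DESeq2 (1.98, 0.00391) and without robust dispersions (0.0161), and under no other alternative. Ccna2 (0.95, adjusted p = 0.0446) and the glucose transporter gene Slc2a2 (0.35, adjusted p = 0.0303) were the remaining calls, and neither was called when knockout library 5 or 6 or any 1 control library was left out (highest adjusted p = 0.135 and 0.102). Of 3 genes known to be lowered by prolactin signalling, none passed edgeR's test, and DESeq2 called 0. At an unadjusted edgeR p under 0.05, 1 was higher and 0 lower, and 1 was called higher without knockout library 4. The cell cycle inhibitor Cdkn1b was at 76.5 to 85.2 CPM in knockout libraries and 82.4 to 86.8 CPM in control libraries.

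Of 12 genes known as Stat5 targets in other tissues, 11 were tested, 1 rose, 3 fell and 7 did not pass (median -0.18), against 11.8% higher and 12.6% lower over all genes tested. The inhibitor of differentiation Id1 fell by 0.94 (SE 0.21, edgeR adjusted p = 0.0122), the growth factor gene Igf1, the classic target of growth hormone in liver, by 0.81 (SE 0.21, adjusted p = 0.0212) and the survival gene Bcl2l1 by 0.53 (SE 0.15, adjusted p = 0.0427). The G1 cyclin gene Ccnd3 rose by 0.25 (SE 0.07, adjusted p = 0.0301). Igf1 was not called when knockout library 5 or 6, or control library 10 or 16, was left out (highest adjusted p = 0.0676), Bcl2l1 without any 1 library except control library 7 (0.130) and with no low-count filter (0.0600), and Ccnd3 without any 1 library except knockout library 5 or 6 (0.0904) and with the acinar covariate (0.338). The calls in this list fell to 1 lower when 5 or 6 of the knockout or 10 or 16 of the control was left out, and to 0 higher without control library 7 or 10 or with the acinar covariate.

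**Figure D4:**
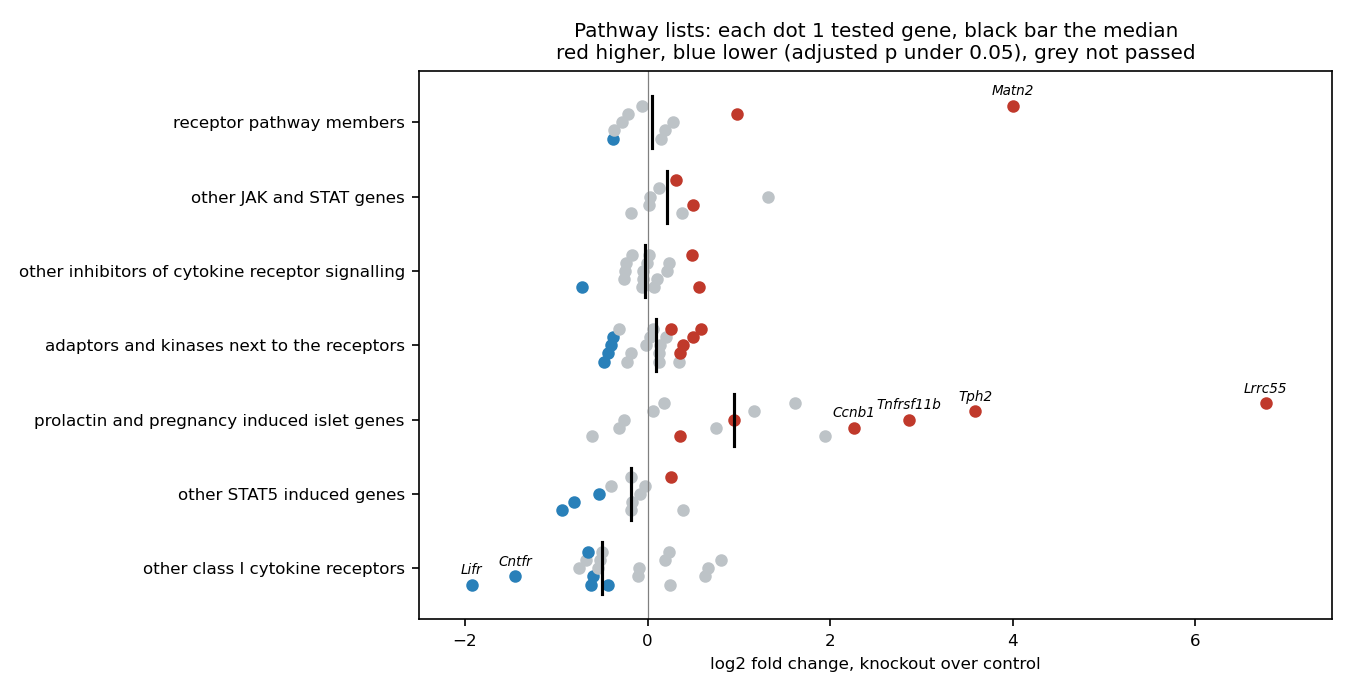
Log2 fold change (knockout over control, x axis) of every tested gene in the receptor pathway and in 6 lists of related genes. Each dot is a gene, red if higher and blue if lower at an adjusted p under 0.05 and grey otherwise, and black bars are medians, the highest of which is 0.95 in the list of genes induced by prolactin or in pregnancy.

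Among the other JAK and STAT genes, 2 of 8 rose, none fell (0 at an unadjusted p under 0.05, and 0 by DESeq2) and 6 did not pass (median 0.22). The share of all genes tested that passed was 24.4% (11.8% higher and 12.6% lower). Jak1, the kinase of gp130 and interferon receptors, was at 347 ± 11.9 CPM in the knockout, against 247 ± 21.5 CPM in control islets (SD, n = 3 each, log2 fold change 0.49, SE 0.08, edgeR adjusted p = 0.00379). Stat3, which gp130 cytokines activate, rose by 0.31 (SE 0.08, adjusted p = 0.0178), and this call was lost without control library 7 (0.0604) or 10 (0.0545), and under the acinar covariate (0.102).

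Among 16 other genes that dampen or adjust cytokine receptor signalling, 2 rose, 1 fell and 13 did not pass (median -0.03). Of all genes tested, 11.8% were higher and 12.6% lower. Grb10, an adaptor that restrains growth factor receptors, was at 60.2 ± 0.808 CPM in the knockout, against 98.9 ± 3.52 CPM in control islets (SD, n = 3 each, log2 fold change -0.72, SE 0.06, edgeR adjusted p = 1.11e-04). Ptpn11, which encodes the phosphatase SHP-2 that can also promote signalling, rose by 0.48 (SE 0.07, adjusted p = 0.00189). Ptpn6, which encodes SHP-1, a phosphatase most abundant in blood cells, rose by 0.57 (SE 0.15, adjusted p = 0.0307). Ptpn6 missed the threshold without knockout library 4 or any 1 control library (highest adjusted p = 0.0862) and with the acinar covariate (0.134). Summed leukocyte markers were at 154 to 468 CPM in the knockout, against 129.5 to 255 CPM in control islets, lowest in the knockout in library 5, where Ptpn6 was also lowest, and their part in the difference was not tested. With upper-quartile factors, 3 genes of this list were lower.

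The adaptors and kinases that join these receptors to the PI3-kinase and MAP kinase routes split evenly. Of 20 genes, 5 rose, 4 fell and 11 did not pass (median 0.09), against 11.8% higher and 12.6% lower over all genes tested. Pik3ca, a catalytic PI3-kinase subunit, rose by 0.38 (SE 0.06, edgeR adjusted p = 0.00215) and the docking protein gene Gab2 by 0.59 (SE 0.11, adjusted p = 0.00617). Akt1, a kinase downstream of PI3-kinase, fell by 0.43 (SE 0.07, adjusted p = 0.00338) and the MAP kinase gene Mapk3 by 0.48 (SE 0.09, adjusted p = 0.00576). With the acinar covariate Gab2 (adjusted p = 0.123) and Mapk3 (0.0510) missed the threshold, and 3 genes were higher and 1 lower. The count of lower genes was 2 without knockout library 4 or control library 10, and the count of higher genes was 3 without control library 7.

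By its pattern over the 6 libraries, Prlr was most like Pax6os1, Slc4a4, Fam159b, Gpr39 and Fen1. Likeness was the root mean square difference of centred log2 CPM over 6 libraries, computed for 11352 genes with at least 5 CPM on average, and it was 0.126 for Pax6os1 and 0.156 to 0.167 for the other 4. The nearest, Pax6os1, a transcript antisense to Pax6, was at 17.4 CPM in the knockout, against 8.94 CPM in control islets on average.

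In the authors' deposited table, 3 of the 10 pathway genes had an adjusted p under 0.05, and these were the same 3 genes. Its log2 fold changes (knockout over control) were 4.02 for Matn2, 0.9998 for Prlr and -0.36 for Ghr in the authors' deposited table.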

How the data were processed

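Per the labels' protocols, islets were isolated with Collagenase P, a Histopaque gradient and picking, and TruSeq libraries were sequenced as single-end reads on a HiSeq2000. Per library, the authors deposited raw counts of reads by gene. The deposited comparison table holds group means of counts scaled by size factors (a signal), the fold change as a ratio and as log2, and raw and adjusted p-values. Build mm9 and the tools TopHat2 2.1.0, bcl2fastq 1.8.4, DESeq and Cufflinks 2.0.2 are named per the submitters' processing notes. For the counter, annotation and strand setting, nothing is given in the sources used here.

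The counts were tested with edgeR 4.0.16 (R 4.3.3) after filterByExpr (minimum count 10, minimum total 15) had left 14770 of 23284. Libraries were scaled by TMM factors (0.988 to 1.021), and the groups were compared by the robust quasi-likelihood test, with p-values adjusted by Benjamini-Hochberg over all genes tested (threshold 0.05), and adjusted p-values are from it unless another tool is named. The test was checked in a single run on simulated counts, with far fewer changed genes than were called here. There the share of false calls was above the threshold and small changes were often missed. Both outcomes depend on how many genes change, so they need not hold to the same extent here. Calls near the threshold are still taken as less secure. CPM values use the TMM-scaled library totals, and log2 ratios use a prior count of 2. Replicates differed beyond sampling noise (15.9 to 41.5 chi-square units per degree of freedom, 6 pairs). Alternatives were DESeq2 1.42.0, limma-voom (limma 3.58.1), other scaling factors, filters and dispersions, an acinar marker covariate, and each library left out. Exon lengths and overlaps were computed from the exon coordinates of GENCODE M21 (GRCm38), while the processing notes name build mm9. Promoter windows are from RefSeq. The members and lists were chosen with earlier results of these data known. From each list up to 4 genes with the smallest p past the threshold were named, or the most abundant where none passed. Il6ra, Il6st, Slc2a2, Ccna2, Mki67 and Tph1 were named after their values were seen. The values of 1 gene that is counted in its list are not reported here.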

Additional observations from a re-analysis of the deposited data

How the results depend on the processing

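The rise of Matn2 kept its direction and its call under all 15 alternatives, and that of Prlr under 14, the exception being the acinar marker covariate. The fall of Ghr kept its direction under all 15 and its call under 10. With the acinar covariate 942 genes were higher and 805 lower over the whole table, against 1736 and 1864 without it, and 1 pathway gene was higher and 0 lower. With each library left out in turn, the whole table gave 1153 to 1590 higher and 1225 to 1433 lower genes, fewest without control library 10. The pathway genes gave 2 higher throughout and 0 to 2 lower, and the other pathway lists gave 9 to 20 higher genes, with 9 without control library 7, against 17 with all libraries. Reversed directions occurred for genes that did not pass: Bcl6 with limma-voom (0.15), Stat5b (0.00041), Socs2 (-0.12) and Socs3 (0.22) with the acinar covariate, Cish (-0.02) and Socs2 (-0.02) without knockout library 6, Socs3 (0.063) without control library 7, and Cish (-0.13), Socs2 (-0.15) and Bcl6 (0.49) without control library 10. The cause was not tested. With each library left out in turn, the log2 fold change ranged from -0.13 to 0.66 for Cish, -0.15 to 0.35 for Socs2, -0.61 to 0.063 for Socs3 and -0.43 to 0.49 for Bcl6. Leaving out a library leaves fewer samples and 2 libraries in its group. No ratio turned its direction. The scaling alternatives shifted the median of all genes by at most 0.03 on the log2 scale. No paired analysis was possible because the groups share no replicate number. Socs3 had the lowest mean CPM of the pathway genes in both groups, with 94 to 163 counts in knockout and 116 to 300 counts in control libraries. Its SE (0.34) was nevertheless below those of Cish (0.59) and Bcl6 (0.49), which had higher mean CPM.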

Other observations

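Other class I cytokine receptors, the family to which Prlr and Ghr belong, were counted in the same way. Of 23 genes, 19 were tested, 6 fell, 0 rose and 13 did not pass in edgeR (1 was higher at an unadjusted p under 0.05, and DESeq2 and limma-voom each called 1 higher), with a median log2 fold change of -0.50 beside -0.01 over all genes tested, of which 11.8% were higher and 12.6% lower. Lifr, the receptor for leukaemia inhibitory factor, was at 40.0, 38.4 and 39.4 CPM in knockout libraries and at 144, 170 and 134 CPM in control libraries (-1.93, SE 0.10, edgeR adjusted p = 1.03e-05). Cntfr, the receptor for ciliary neurotrophic factor, was at 22.7, 26.2 and 24.2 CPM in knockout libraries and at 67.3, 70.7 and 61.6 CPM in control libraries (-1.45, SE 0.09, adjusted p = 2.21e-05). In both genes every knockout library lay below every control library by more than the spread within a group. Osmr, the oncostatin M receptor, fell by 0.65 (SE 0.14, adjusted p = 0.00977), and Csf2ra, a subunit of the GM-CSF receptor, by 0.43 (SE 0.08, adjusted p = 0.00650). Osmr missed the threshold with the acinar covariate (adjusted p = 0.0658).

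Lifr, Cntfr, Osmr and the interleukin-6 receptor gene Il6ra encode subunits that signal together with gp130, the product of Il6st. Il6ra fell by 0.62 (SE 0.14, edgeR adjusted p = 0.0174), a call lost when 5 or 6 of the knockout, or 10 or 16 of the control, was left out (adjusted p up to 0.0624). Il6st was at 226, 246 and 233 CPM in knockout libraries and at 166, 186 and 101 CPM in control libraries, and its log2 fold change of 0.63 (SE 0.22) did not pass (adjusted p = 0.0821). It passed with DESeq2 (0.65, adjusted p = 0.00230), limma-voom (0.69, 0.0451), the acinar covariate (1.20, 0.0226), and without control library 16 (0.41, 0.0177) or, just under the threshold, 10 (0.81).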
